A study of Homo sapiens with 6 samples.

Results

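The kinesin genes are described here in 1CT, an immortalized line of human colonic epithelial cells, and in 1CT-A, the version of 1CT in which wild type APC was depleted. A gene was taken as a kinesin when its symbol was KIF or KIFC with a number, with or without letters after it, and this gave 42 genes out of 24462 symbols. KIFAP3, which is no motor, and the antisense RNAs of kinesin genes were left out. By their known roles 14 of the 42 were placed in a mitotic group and 15 in a transport group, 6 were placed with the cilium and 7 with other or unsettled roles. CENPE and STARD9 are kinesins by protein but not by symbol, and were read with the spindle partners.

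The series holds 3 libraries of 1CT, labelled HCEC 1CT_WT, and 3 libraries of 1CT-A, labelled as the APC knockdown. Both lines received no treatment and grew in the same DMEM and M199 medium with EGF at 20 ng/ml, 2% FBS, hydrocortisone, insulin, sodium selenite and transferrin. RNA was measured with QuantSeq libraries from 500 ng of total RNA, which hold 1 tag near the 3′ end of a transcript rather than reads along its length. 1CT-A is 1 line, the means by which its APC was depleted are not given in the sources used here, and no 1CT line that carries a control for that depletion is among the libraries analysed here. The labels do not say that replicates came from separate cultures, so p-values measure the spread between these libraries, which may be technical.

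Kinesins are motor proteins that use ATP to move along microtubules or to take microtubule ends apart. Mitotic kinesins build the spindle, move chromosomes and organize the midzone where the cell divides, and their RNA is known to peak in G2 and M phase. Transport kinesins carry vesicles, organelles and protein complexes through the cytoplasm at all stages of the cell cycle, many of them best known from neurons. APC, whose loss opens most colorectal tumors, is itself known to bind microtubule ends and to ride on kinesin-2 motors.

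The libraries held 7788679 to 8452258 counts in 1CT and 11158108 to 12602988 counts in 1CT-A, and levels are given per 1000000 counts of the library (CPM). A level of 3 counts, taken as the limit of what can be seen, was 0.355 to 0.385 CPM for 1CT but 0.238 to 0.269 CPM for 1CT-A. APC, the depleted gene, was at 49.3, 43.8 and 46.6 CPM in 1CT and at 31.5, 30.0 and 34.4 CPM in 1CT-A, with a log2 fold change of -0.58 (SE 0.09, edgeR adjusted p = 0.000176). The epithelial label was checked against 7 epithelial markers, of which only KRT18 had more than 3 counts in all 6 libraries. EPCAM was at 0 in all of them, and the summed level of the list ranged over 13.5 to 17.6 CPM in 1CT but 3.32 to 7.28 CPM in the 1CT-A libraries. None of 7 colonocyte markers was above 3 counts in all libraries and 4 were at 0 throughout, whereas all 7 mesenchymal markers were above it, with a summed level of 4650 to 5634 CPM in the 1CT libraries against 4283 to 4586 CPM in the others. The markers therefore go against the epithelial label in both lines, and the lines are called here by their names only. Of 6 neuron markers only SYT1 was above 3 counts in all libraries, and the list summed to 13.6 to 18.0 CPM in 1CT but 5.16 to 5.79 CPM in 1CT-A. The part of these markers in the transport values below was not tested.

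Promoter sequences of 34 of the 42 kinesins were found in RefSeq (build GRCh38.p14), each running from 250 bases before the start of the gene to 50 bases after it, so that the last bases lie in the first exon. They are shown for 6 kinesins on which the expression results turn: KIFC1 and KIF11 as mitotic members with large rises, KIF4A and KIF4B as near-copies, KIF20A as the mitotic member with the smallest rise called, and KIF3A as a transport member that fell. The windows are chr6:33391573-33391872 for KIFC1, chr10:92592880-92593179 for KIF11, chrX:70289854-70290153 for KIF4A, chr5:155013505-155013804 for KIF4B and chr5:138178862-138179161 for KIF20A, all on the plus strand, and chr5:132737497-132737796 on the minus strand for KIF3A. Capitals mark the letters CCAAT, the letters TTTGAA or TTCGAA of the cell cycle homology region, and the letters TTCCCGC or TTGGCGC of an E2F site, on either strand. The cell cycle homology region and the CCAAT box are promoter elements known from genes that peak in G2 and M phase.
KIFC1: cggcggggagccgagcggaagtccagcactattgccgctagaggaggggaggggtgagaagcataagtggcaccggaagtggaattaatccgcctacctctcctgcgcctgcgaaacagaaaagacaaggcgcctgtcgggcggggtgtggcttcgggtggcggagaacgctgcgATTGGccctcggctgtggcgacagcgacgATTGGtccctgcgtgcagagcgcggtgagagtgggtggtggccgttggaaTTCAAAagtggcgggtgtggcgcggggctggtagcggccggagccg
KIF11: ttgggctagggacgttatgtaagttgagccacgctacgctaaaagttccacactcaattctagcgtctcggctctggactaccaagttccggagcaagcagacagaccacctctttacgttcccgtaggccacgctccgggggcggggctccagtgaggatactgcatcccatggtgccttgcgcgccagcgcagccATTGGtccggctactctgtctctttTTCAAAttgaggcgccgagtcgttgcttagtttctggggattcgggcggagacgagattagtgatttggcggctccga
KIF4A: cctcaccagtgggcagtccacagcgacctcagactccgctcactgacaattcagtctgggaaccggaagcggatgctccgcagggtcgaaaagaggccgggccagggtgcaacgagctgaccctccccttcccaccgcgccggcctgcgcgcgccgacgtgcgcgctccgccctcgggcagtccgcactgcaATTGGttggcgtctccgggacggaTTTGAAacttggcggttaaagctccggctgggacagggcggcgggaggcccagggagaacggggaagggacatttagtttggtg
KIF4B: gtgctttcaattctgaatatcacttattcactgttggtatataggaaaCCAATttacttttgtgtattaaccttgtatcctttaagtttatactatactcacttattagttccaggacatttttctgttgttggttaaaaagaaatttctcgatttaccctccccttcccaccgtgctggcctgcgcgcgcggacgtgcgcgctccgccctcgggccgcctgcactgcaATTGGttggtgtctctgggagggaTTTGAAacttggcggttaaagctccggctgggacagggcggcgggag
KIF20A: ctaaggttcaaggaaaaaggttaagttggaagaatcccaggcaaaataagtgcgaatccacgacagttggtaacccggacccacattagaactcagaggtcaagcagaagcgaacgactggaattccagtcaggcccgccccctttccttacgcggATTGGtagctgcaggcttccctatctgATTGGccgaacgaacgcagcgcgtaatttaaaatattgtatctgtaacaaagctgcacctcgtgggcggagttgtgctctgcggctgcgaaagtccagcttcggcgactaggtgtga
KIF3A: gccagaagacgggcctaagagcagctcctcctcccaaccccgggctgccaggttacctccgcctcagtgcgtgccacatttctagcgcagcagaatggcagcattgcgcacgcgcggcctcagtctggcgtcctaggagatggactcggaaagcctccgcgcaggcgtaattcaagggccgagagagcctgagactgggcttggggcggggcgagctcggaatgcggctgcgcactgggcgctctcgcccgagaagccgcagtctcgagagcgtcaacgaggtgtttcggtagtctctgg

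In KIF11 the CCAAT letters began at -53 and the homology region letters at -28 from the start, and in KIF4A they began at -58 and -34. KIFC1 had CCAAT letters at -75 and -46 and homology region letters at 5. KIF4B, a gene without introns that arose as a copy of KIF4A, carried both sets of letters in the same order at -21 and 4, within a window whose longest run of bases in common with that of KIF4A was 50. KIF20A held CCAAT letters at -94 and -67 and no homology region letters, and KIF3A held none of the letters searched. The map of these letters over the mitotic and transport promoters shows where they lay.

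**Figure D1:**
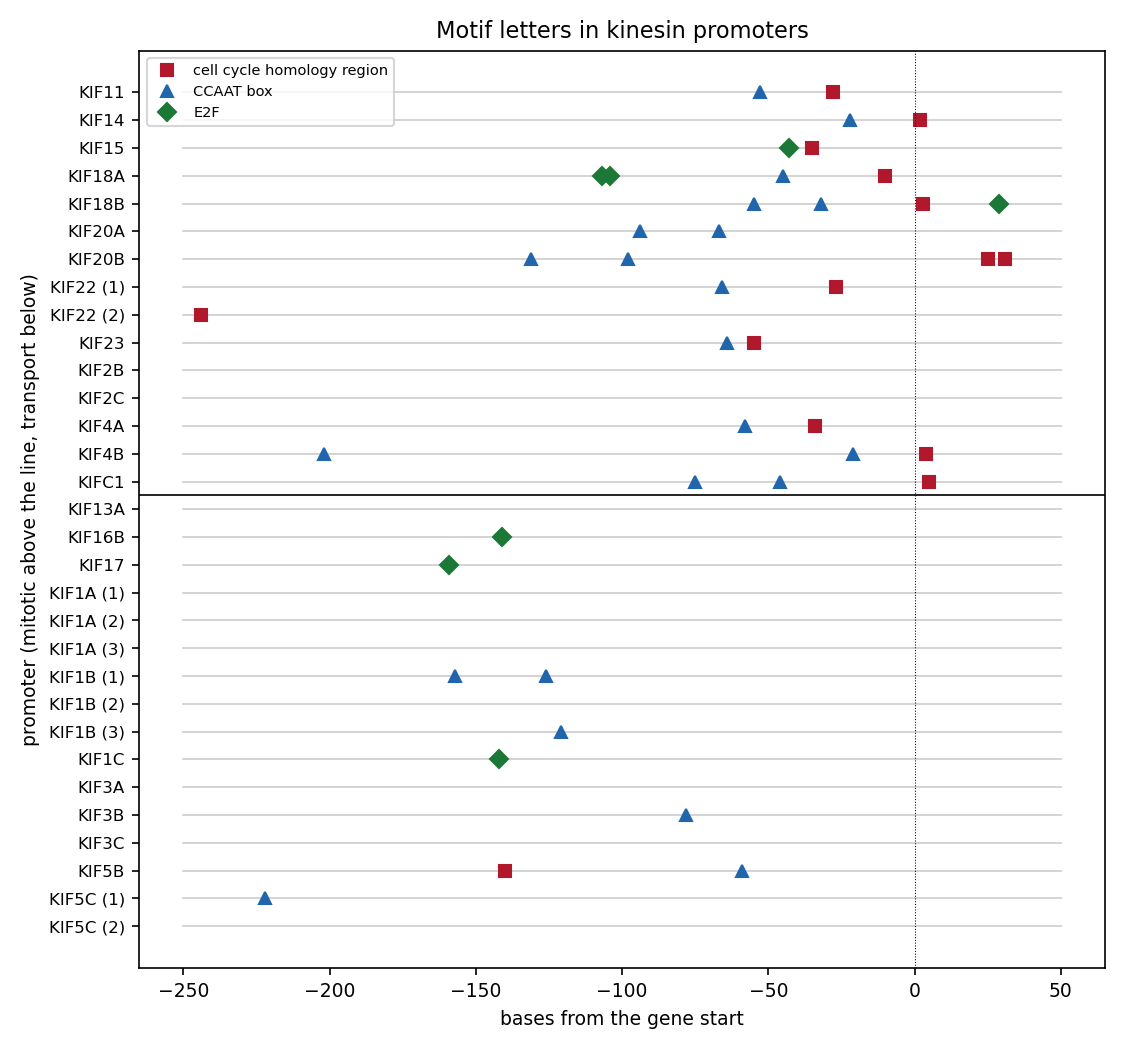
Places of the cell cycle homology region, CCAAT and E2F letters, on either strand, in the promoters of mitotic kinesins (15 promoters of 14 genes, above the line) and transport kinesins (16 promoters of 11 genes, below it), with bases from the gene start on the horizontal axis and numbers in brackets for further promoters of a gene. The homology region letters were found in 12 mitotic promoters and in 1 transport promoter, that of KIF5B.

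The homology region letters were present in 12 of 15 mitotic promoters (80%) and in 1 of 16 transport promoters (6.25%), against 16.4% of all 35116 promoters of the same length. Promoters of 1 gene can overlap, and those of KIF22 hold the same letters. By gene, the letters were present in 11 of 14 mitotic genes (78.6%), 1 of 11 transport genes (9.09%) and 19.5% of all 27305 genes. The mitotic genes without them were KIF20A, KIF2B and KIF2C. KIF2B and KIF2C held none of the letters searched, yet KIF2C had a log2 fold change of 1.09, among the largest rises given below. Whether the letters go with the size of a rise was not tested. CCAAT letters were present in 11 of 15 mitotic promoters (73.3%), 5 of 16 transport promoters (31.3%) and 34.6% of all promoters. E2F letters gave 3 of 15 mitotic promoters (20%), 3 of 16 transport promoters (18.8%) and 9.23% of all promoters. In a count chosen after the positions were seen, CCAAT was followed by the homology region letters within 60 bases in 9 of 14 mitotic genes. The same held for 0 of 11 transport genes, 1 of 4 cilium genes, 0 of 5 other kinesins and 2.16% of the 27305 genes in the table. Spacings in the mitotic genes ran from 9 bases in KIF23 to 50 in KIFC1. The cilium gene was KIF24, with a spacing of 48, and it was not called in the test below. These are matches of letters and not measured binding sites.

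Of the 42 kinesins 30 had enough counts for the test of 1CT-A against 1CT, which was fitted across 12514 genes. In that fit 51.0% of all genes tested were called at an adjusted p under 0.05, 25.0% as higher and 26.0% as lower in 1CT-A, so a call was common. Of the kinesins tested 13 were called higher, 7 lower and 10 neither. The mitotic group had 12 of 13 members tested called higher and 0 called lower, with a median log2 fold change of 0.91, beside -0.01 for all genes tested. The transport group had 0 of 11 called higher and 5 called lower, with a median of -0.24, which was -0.12 without 1CT replicate 2. In these bulk libraries a larger share of dividing cells and more RNA per dividing cell cannot be told apart. Beside the mitotic group, 22 of 23 general proliferation genes were called higher, and their summed level was 2512 to 2689 CPM in 1CT but 4929 to 5085 CPM in 1CT-A. Their part in the kinesin values was not tested.

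**Figure D2:**
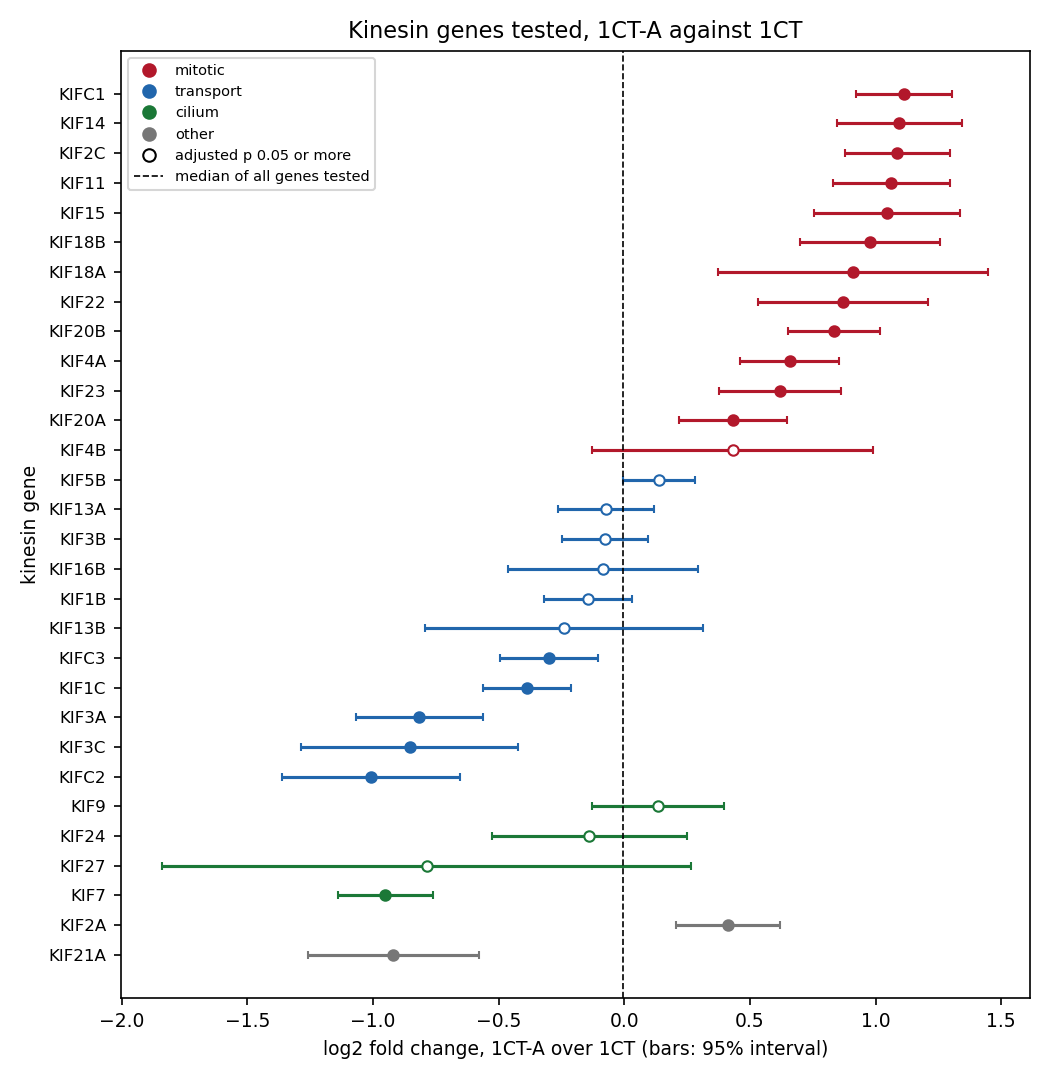
Log2 fold change of 1CT-A over 1CT (horizontal axis) with its 95% interval for the 30 kinesins tested, colored by role, with filled points at an adjusted p under 0.05 and a dashed line at the median of all genes tested. All 13 mitotic members lie to the right of 0, from 0.43 to 1.11, and 10 of the 11 transport members lie to the left of it. Of all 12514 genes tested 6197 had a value above 0. Among the transport members to the left, the intervals of KIF13A, KIF3B, KIF16B, KIF1B and KIF13B include 0, and so does that of KIF4B to the right.

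Of the 12 kinesins that were not tested, KIF2B in the mitotic group, KIF1A in the transport group, KIF6 and KIF19 of the cilium group and KIF12 and KIF21B had 0 counts in all 6 libraries, which allows up to the level of 3 counts given above. KIF5A and KIF5C, the neuronal heavy chains of kinesin-1, together with KIF25, KIF26A and KIF26B, had at most 2 counts in any library. The remaining one was KIF17, a kinesin-2 motor of dendrites and cilia, with 7, 7 and 9 counts in 1CT and 2, 2 and 0 counts in 1CT-A. Scaled to the library totals this was a ratio of 8.24 of 1CT over 1CT-A, with an exact 95% interval of 2.82 to 32.8 that covers counting error only. When genes of low count were kept in the fit, KIF17 was called lower by edgeR (adjusted p = 0.00148) and by DESeq2 (adjusted p = 0.0166). KIF26A, with 2 counts in each 1CT library and 0 in each 1CT-A library, was called lower by edgeR (adjusted p = 0.0417) and given no adjusted p by DESeq2, at a depth where no fold can be given.

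Among the mitotic kinesins, the motors that set up the bipolar spindle had some of the largest differences. KIF11 (Eg5), the motor that pushes spindle poles apart and the target of spindle poisons such as monastrol, was at 15.5, 14.6 and 17.3 CPM in the 1CT libraries and 34.6, 35.1 and 32.1 CPM in the 1CT-A libraries. Its log2 fold change was 1.06 (SE 0.11, edgeR adjusted p = 3.98e-06). KIF15, which backs up KIF11 once the spindle has formed, was at 7.81, 7.85 and 7.70 CPM in the 1CT libraries and 16.9, 17.6 and 15.2 CPM in the 1CT-A libraries, with a log2 fold change of 1.05 (SE 0.13, edgeR adjusted p = 3.04e-05). KIFC1 (HSET), which moves toward minus ends, focuses poles and clusters extra centrosomes, was at 66.1, 77.0 and 81.9 CPM in the 1CT libraries and 173, 161 and 166 CPM in the 1CT-A libraries. Its log2 fold change of 1.11 (SE 0.09, edgeR adjusted p = 4.80e-07) was the largest of the 30 kinesins tested. KIFC1 has 424 exonic bases in common with the processed pseudogene RPL12P1 on the opposite strand, away from its 3′ end. In all 3 genes every 1CT-A library was above every 1CT library, by a wide margin compared with the spread within either line.

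The motors that act on chromosomes and microtubule ends rose as well. KIF2C (MCAK), which takes microtubule ends apart to correct faulty attachments at kinetochores, was at 27.2, 23.2 and 23.1 CPM in the 1CT libraries and 50.1, 56.8 and 53.6 CPM in the 1CT-A libraries, with a log2 fold change of 1.09 (SE 0.10, edgeR adjusted p = 1.25e-06). KIF2A, a related depolymerase that also acts in interphase and was placed outside the mitotic group for that reason, was at 29.7, 29.2 and 24.9 CPM in the 1CT libraries and 39.3, 37.0 and 38.5 CPM in the 1CT-A libraries, and its log2 fold change was 0.41 (SE 0.10, edgeR adjusted p = 0.00289). The intervals of the 2 depolymerases, 0.88 to 1.29 and 0.21 to 0.62, did not overlap, and the ratio of KIF2C to KIF2A counts within a library was 0.793 to 0.928 in 1CT and 1.28 to 1.54 in 1CT-A. That ratio, like the other ratios below, was chosen after the values were seen and was given no test. The 3′ end of KIF2A lies in an exon of DIMT1 on the opposite strand, with 2446 exonic bases in common, so its counts are uncertain where counting did not use strand.

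KIF18A, which damps the movements of chromosomes at the metaphase plate, was at 5.09, 4.35 and 2.31 CPM in the 1CT libraries and 6.36, 7.37 and 9.05 CPM in the 1CT-A libraries. The third 1CT library was the lowest and the lines did not overlap, and the log2 fold change was 0.91 (SE 0.25, edgeR adjusted p = 0.00816). Without single libraries this value ran from 0.67 to 1.14, with edgeR adjusted p up to 0.0439. KIF18B, which shortens astral microtubules, was at 13.3, 17.0 and 12.2 CPM in the 1CT libraries and 30.7, 27.6 and 27.9 CPM in the 1CT-A libraries, with a log2 fold change of 0.98 (SE 0.13, edgeR adjusted p = 3.81e-05). KIF22 (Kid), a motor that binds DNA and pushes chromosome arms away from the poles, was at 10.8, 8.57 and 13.6 CPM in the 1CT libraries and 20.0, 22.2 and 19.7 CPM in the 1CT-A libraries, and its log2 fold change was 0.87 (SE 0.16, edgeR adjusted p = 0.000462). For these 3 genes the spread within 1CT was wide, yet every 1CT-A library was above it.

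KIF4A, a chromosome-bound motor that also sets the length of the midzone with PRC1, was at 24.6, 27.0 and 25.2 CPM in the 1CT libraries and 43.4, 40.9 and 40.4 CPM in the 1CT-A libraries, with a log2 fold change of 0.66 (SE 0.09, edgeR adjusted p = 5.63e-05). KIF4B, its copy on another chromosome, was at 2.13, 2.29 and 2.70 CPM in the 1CT libraries and 3.76, 3.42 and 2.70 CPM in the 1CT-A libraries. The highest 1CT library and the lowest 1CT-A library of KIF4B met at the same rounded level, and KIF4B was the 1 mitotic member tested that was not called, with a log2 fold change of 0.43 (SE 0.26, edgeR adjusted p = 0.183) and an interval of -0.13 to 0.99. KIF4A and KIF4B were the only pair of kinesins whose annotated transcripts had any run of 50 bases in common. Such runs made up 13.3% of the KIF4A and 14.0% of the KIF4B windows of that length, so reads could be divided between the copies. The ratio of KIF4B to KIF4A counts was 0.0848 to 0.107 in 1CT and 0.0668 to 0.0868 in 1CT-A, and these ranges overlapped.

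The motors of the midzone and of cytokinesis were higher in 1CT-A by unequal amounts. KIF14, which brings citron kinase to the midbody, was at 11.5, 13.4 and 14.1 CPM in the 1CT libraries and 28.5, 28.5 and 28.5 CPM in the 1CT-A libraries, with a log2 fold change of 1.09 (SE 0.11, edgeR adjusted p = 5.26e-06). KIF20B was at 36.3, 37.2 and 37.0 CPM in the 1CT libraries and 70.7, 63.3 and 68.2 CPM in the 1CT-A libraries, and its log2 fold change was 0.83 (SE 0.08, edgeR adjusted p = 3.97e-06). Both are needed for the last steps of cell separation, and neither overlapped between the lines.

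KIF23 (MKLP1), the motor of the centralspindlin complex, was at 14.9, 15.6 and 15.7 CPM in the 1CT libraries and 22.2, 26.2 and 24.5 CPM in the 1CT-A libraries, with a log2 fold change of 0.62 (SE 0.11, edgeR adjusted p = 0.000488). Its partner RACGAP1 had a log2 fold change of 0.88 (SE 0.11, edgeR adjusted p = 2.61e-05). KIF20A (MKLP2), which carries the chromosomal passenger complex to the midzone, was at 51.1, 50.5 and 38.9 CPM in the 1CT libraries and 66.5, 63.4 and 65.0 CPM in the 1CT-A libraries. Its log2 fold change of 0.43 (SE 0.10, edgeR adjusted p = 0.00287) was the smallest of the 12 mitotic members called. The third 1CT library was the lowest for KIF20A and the highest for KIFC1, so the ratio of KIFC1 to KIF20A counts was 1.29, 1.53 and 2.11 in the 1CT libraries and 2.60, 2.54 and 2.56 in the 1CT-A libraries. KIF20A has 74 exonic bases in common with CDC23 on the opposite strand, which include its 3′ end, and 132 with BRD8 on that strand. The counts of KIF20A and this ratio are therefore uncertain where counting did not use strand.

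**Figure D3:**
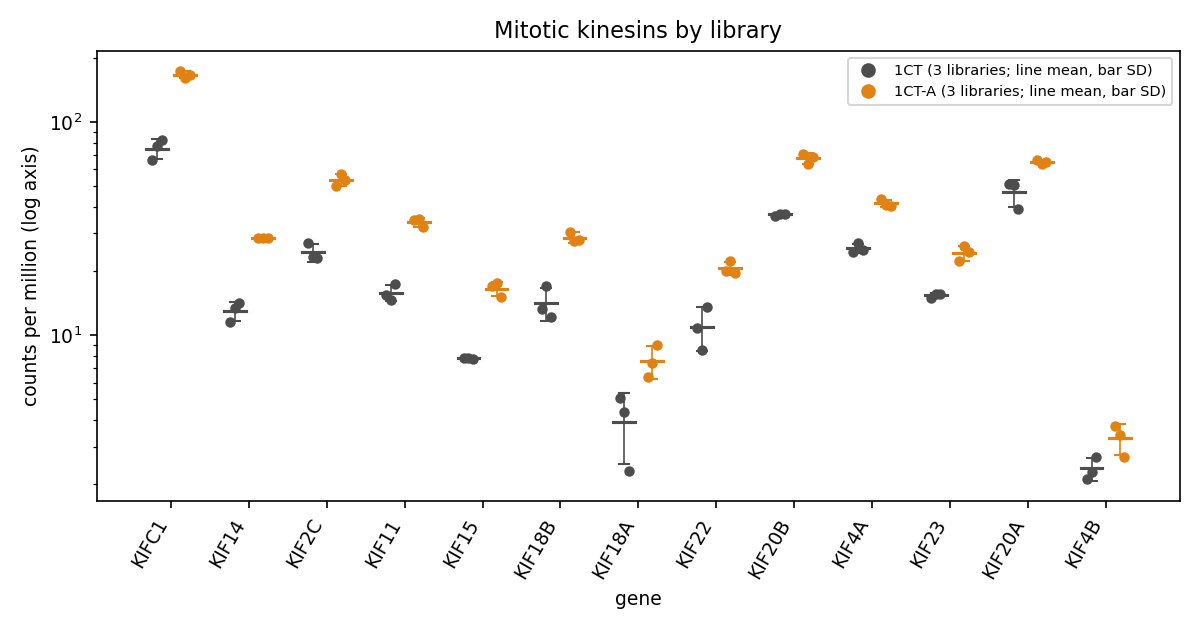
Level of each mitotic kinesin tested in each library, in CPM of the library total on a log axis, with points for the 3 libraries of 1CT (dark) and of 1CT-A (orange), a line at the mean and a bar for the SD. The 1CT-A points lie above the 1CT points for 12 genes, and for KIF4B the lines meet at 2.70 CPM.

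Summed over the mitotic group, the level was 292 ± 6.15 CPM in 1CT and 558 ± 7.84 CPM in 1CT-A (SD, n = 3 libraries each). The mitotic group took 18.2%, 18.1% and 17.0% of all kinesin counts in the 1CT libraries and 33.1%, 32.1% and 31.9% in the 1CT-A libraries. Without KIFC1, which had the most counts of the group, the mean share was 13.8% in 1CT and 25.1% in 1CT-A, and without KIF1C of the transport group it was 29.0% and 45.7%. The separation of the lines in this share therefore did not rest on either gene alone. The sum over all kinesins was 1648 ± 71.7 CPM in 1CT and 1724 ± 11.3 CPM in 1CT-A. Libraries of the lines overlapped in that sum, at 1576 to 1720 and 1712 to 1734 CPM.

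**Figure D4:**
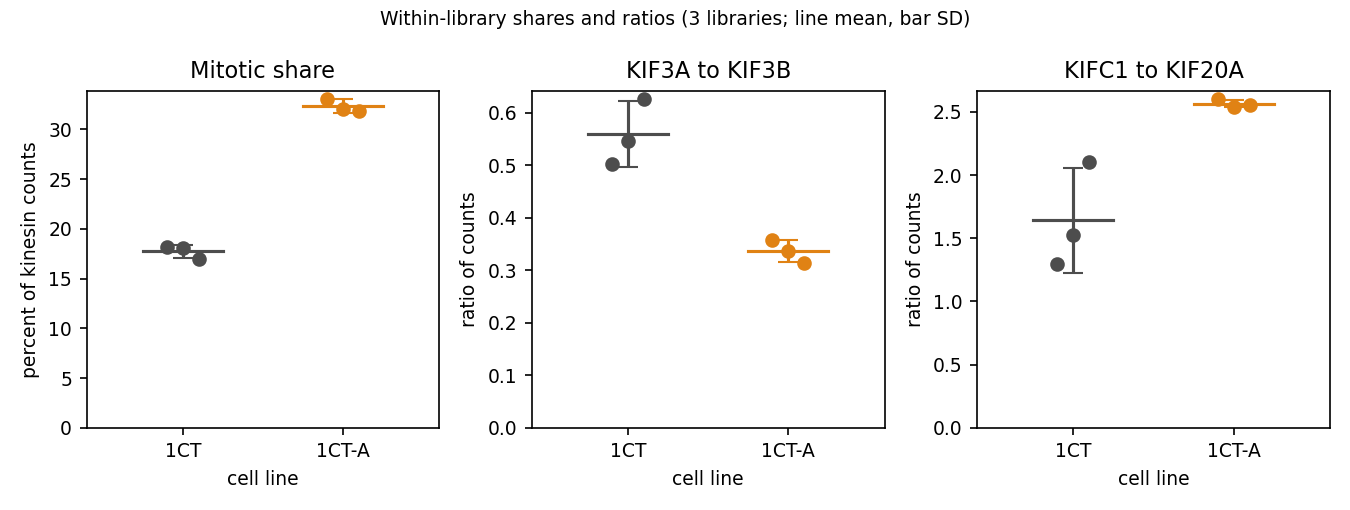
Share of kinesin counts in the mitotic group (left, percent), ratio of KIF3A to KIF3B counts (middle) and ratio of KIFC1 to KIF20A counts (right) in the 3 libraries of each line, with a line at the mean and a bar for the SD. The mitotic share was 17.0% to 18.2% in 1CT and 31.9% to 33.1% in 1CT-A, and neither ratio overlapped between the lines. Both ratios were chosen after the values were seen, and KIFC1 and KIF20A had the largest and the smallest rise called in the mitotic group. Ratios not shown did overlap: KIFC1 to KIF11 was 4.27 to 5.27 in 1CT and 4.59 to 5.18 in 1CT-A. KIF20A to KIF23 was 2.48 to 3.43 in 1CT and 2.42 to 2.99 in 1CT-A.

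The proteins that mitotic kinesins work with were read from a list of 23 spindle and cytokinesis genes, of which 19 were called higher, 0 lower and 4 neither, beside 25.0% of all genes higher and 26.0% lower, with a median log2 fold change of 0.66. The largest rise was that of CDCA8 (Borealin), a subunit of the chromosomal passenger complex that KIF20A carries, at 1.51 (SE 0.08, edgeR adjusted p = 2.09e-08). PRC1, the bundling protein of the midzone that KIF4A and KIF14 bind, had a log2 fold change of 0.66 (SE 0.07, edgeR adjusted p = 9.15e-06). CENPE, the kinetochore kinesin that moves chromosomes to the plate, had a log2 fold change of 0.43 (SE 0.09, edgeR adjusted p = 0.00161), close in size to KIF20A. STARD9, a kinesin of the pericentriolar material, had a value of -0.38 (SE 0.19, edgeR adjusted p = 0.112) and was not called. Of the general proliferation genes the largest rise was that of MCM2, a subunit of the replicative helicase, at 1.52 (SE 0.08, edgeR adjusted p = 1.52e-08), and TK1 was the 1 gene not called, at 0.18 (SE 0.08, edgeR adjusted p = 0.0977). RACGAP1 and PRC1 were named as partners after their values were seen.

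In the transport group, kinesin-2 had unequal changes among its subunits. KIF3A and KIF3B are the motor subunits that pair with each other and with KIFAP3 to form the heterotrimeric kinesin-2 of cilia and vesicles, and KIF3C pairs with KIF3A. KIF3A was at 45.1, 54.0 and 61.9 CPM in the 1CT libraries and 33.5, 29.8 and 30.5 CPM in the 1CT-A libraries, and every 1CT-A library was below every 1CT library. Its log2 fold change was -0.82 (SE 0.12, edgeR adjusted p = 7.45e-05). KIF3B was not called, with a log2 fold change of -0.08 (SE 0.08, edgeR adjusted p = 0.434) and an interval of -0.25 to 0.09, which did not overlap the interval of KIF3A of -1.07 to -0.56. The ratio of KIF3A to KIF3B counts was 0.503, 0.546 and 0.627 in the 1CT libraries and 0.357, 0.337 and 0.315 in the 1CT-A libraries. KIF3C was at 6.63, 5.80 and 7.32 CPM in the 1CT libraries and 3.50, 4.21 and 3.49 CPM in the 1CT-A libraries, with a log2 fold change of -0.85 (SE 0.20, edgeR adjusted p = 0.00304) and no overlap between the lines. KIFAP3, the accessory subunit through which APC binds the complex, had a log2 fold change of 0.22 (SE 0.18, edgeR adjusted p = 0.333) and was not called.

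The minus-end kinesins outside the spindle fell. KIFC2, known from axons and dendrites, was at 13.0, 12.2 and 14.9 CPM in the 1CT libraries and 5.56, 7.99 and 6.90 CPM in the 1CT-A libraries. Its log2 fold change of -1.01 (SE 0.16, edgeR adjusted p = 0.000216) was the lowest of the 30 kinesins tested, but its 3′ end lies in an exon of FOXH1 on the opposite strand, with 791 exonic bases in common, so its counts are uncertain where counting did not use strand. KIFC3, which acts at the Golgi and at adherens junctions, was at 82.0, 79.7 and 79.3 CPM in the 1CT libraries and 58.3, 69.8 and 73.2 CPM in the 1CT-A libraries. The lines did not overlap, but the difference was small and the first 1CT-A library was the lowest, and the log2 fold change of -0.30 (SE 0.09, edgeR adjusted p = 0.0141) was not called without that library, at -0.21 (edgeR adjusted p = 0.0792).

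KIF1C, a fast motor of dense core vesicles and integrins, took 36.9% to 42.0% of all kinesin counts in 1CT and 28.6% to 29.6% in 1CT-A. It was at 592, 609 and 722 CPM in the 1CT libraries and 489.6, 512 and 510.3 CPM in the 1CT-A libraries, with a log2 fold change of -0.39 (SE 0.08, edgeR adjusted p = 0.0014). The third 1CT library was the highest, and every 1CT library was above every 1CT-A library. The other kinesin-3 motors tested in the transport group were not called. KIF1B, a carrier of mitochondria and synaptic vesicle precursors, had a log2 fold change of -0.15 (interval -0.32 to 0.03), KIF13A of recycling endosomes -0.07 (-0.26 to 0.12), KIF16B of early endosomes -0.08 (-0.46 to 0.29) and KIF13B -0.24 (-0.79 to 0.31). KIF5B, the heavy chain of conventional kinesin in most tissues, was at 207, 223 and 205 CPM in the 1CT libraries and 236, 238 and 244 CPM in the 1CT-A libraries. Although its lines did not overlap, it was not called, with a log2 fold change of 0.14 (SE 0.07, edgeR adjusted p = 0.0959).

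By normalized level, the lines did not overlap for 6 lower and 1 higher of the 11 transport kinesins tested, beside 30.0% of all genes lower and 29.1% higher without overlap, and for 12 higher of the 13 mitotic kinesins. The transport share called lower, 5 of 11, stands beside the 26.0% of all genes. Of the mitotic members 5 had a log2 fold change over 1 and were called, beside 4.00% of all genes. Summed over the transport group, the level was 1225 ± 72.5 CPM in 1CT and 1062 ± 21.9 CPM in 1CT-A (SD, n = 3 libraries each), with KIF1C as the member with the most counts. The mean level of KIF1C alone was 641 CPM in 1CT and 504 CPM in 1CT-A, so most of the difference between these sums lay in that gene.

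**Figure D5:**
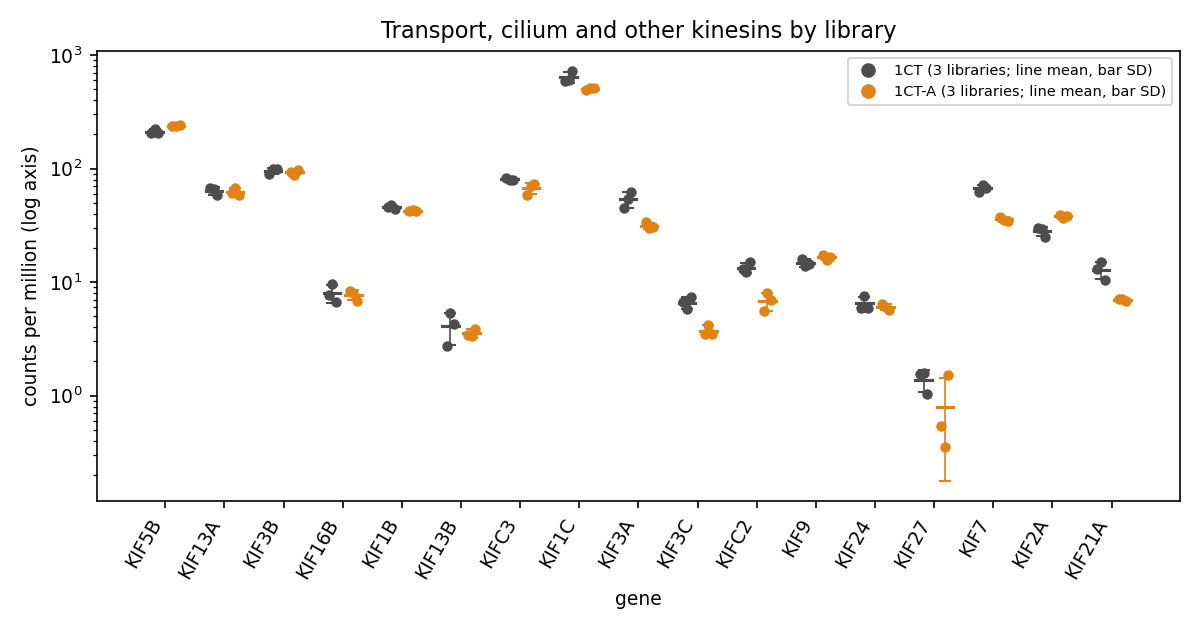
Level of each transport, cilium and other kinesin tested in each library, in CPM of the library total on a log axis, with points for the 3 libraries of 1CT (dark) and of 1CT-A (orange), a line at the mean and a bar for the SD. KIF1B, KIF1C, KIF3A, KIF3C, KIFC2, KIFC3, KIF7 and KIF21A are lower in every 1CT-A library, and KIF2A and KIF5B are higher.

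The light chains and adaptors through which transport kinesins hold their cargo were read from a list of 26 symbols, of which 20 were tested, 7 called lower, 0 higher and 13 neither, beside 26.0% of all genes lower and 25.0% higher, with a median log2 fold change of -0.17. The light chains of kinesin-1 were not called, with log2 fold changes of -0.16 for KLC1 (interval -0.33 to 0.01), -0.11 for KLC2 (-0.39 to 0.16) and -0.66 for KLC4 (-1.39 to 0.06), and KLC3 had too few counts for the test. The largest fall was that of FEZ1, an adaptor that links kinesin-1 to vesicles in axons, with 180, 168 and 184 counts in 1CT and 3, 8 and 9 counts in 1CT-A. Its log2 fold change was -5.26 (SE 0.23, edgeR adjusted p = 2.26e-09). TRAK1, which joins mitochondria to KIF5B, at -1.03 (SE 0.14, edgeR adjusted p = 5.24e-05), and MAPK8IP3 (JIP3), a scaffold for kinesin-1 and dynein, with 1CT-A at 0.499 of the 1CT level (edgeR adjusted p = 2.26e-05), were also called lower, and both were named after their values were seen.

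The cilium kinesins had 1 of 4 members tested called, beside 51.0% of all genes in either direction. KIF7, a scaffold at the tip of the cilium that regulates Hedgehog signaling, was at 62.7, 71.6 and 67.0 CPM in the 1CT libraries and 37.4, 34.9 and 34.7 CPM in the 1CT-A libraries, and its log2 fold change was -0.95 (SE 0.09, edgeR adjusted p = 1.53e-06). Every 1CT-A library was below every 1CT library, and KIF7 has 589 exonic bases in common with TICRR on the opposite strand, away from its 3′ end. KIF27, a relative of KIF7, had a log2 fold change of -0.79 (SE 0.49, edgeR adjusted p = 0.196) from 34 and 29 counts summed over the libraries of 1CT and 1CT-A, and was not called. It was called without the third 1CT-A library, at -1.64 (edgeR adjusted p = 0.0209). KIF9 of motile cilia and KIF24, which restrains cilium growth from the centriole, were not called, at 0.13 (interval -0.13 to 0.40) and -0.14 (-0.53 to 0.25). The 3′ end of KIF24 lies in an exon of UBAP1 on the opposite strand, with 144 exonic bases in common. Counts of KIF24 are thus uncertain where counting did not use strand. KIF21A, a motor that restrains microtubule growth at the cell cortex, was at 13.0, 15.0 and 10.5 CPM in the 1CT libraries and 7.08, 7.02 and 6.82 CPM in the 1CT-A libraries, with no overlap and a log2 fold change of -0.92 (SE 0.16, edgeR adjusted p = 0.000315).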

How the data were processed

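For every library the authors deposited a table of raw counts by gene symbol, whole numbers that were neither normalized nor pooled. The submitters' processing notes name Bowtie2, edgeR and hg19, without roles. The counting tool, the annotation and the use of strand are not given in the sources used here. The paper's single cell RNA-seq, siRNA and qRT-PCR experiments were not analysed here.

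Each file held 25737 entries, and entries with the same symbol were added together (KIFC1 had 3). Libraries were compared with edgeR 4.0.16 in R 4.3.3, with TMM factors and filterByExpr (minimum count 10). The two-sided quasi-likelihood test had line as its only term, and p-values were adjusted by Benjamini and Hochberg's method over all 12514 genes that passed the filter. The threshold for a call was 0.05 on the adjusted p, and intervals are 95% intervals. CPM is scaled to the library total, and overlap between lines in counts of genes was read from TMM-normalized CPM. The lowest p of an exact permutation test of 3 libraries against 3 is 0.1, so none is given. Replicates differed by more than counting noise, most of all in the pairs with 1CT replicate 3. The chi-square per degree of freedom between replicates was 7.06 and 8.42 for those pairs and 3.00 to 4.35 for the others. The script was tested on simulated data. Alternatives were DESeq2 1.42.0, limma-voom from limma 3.58.1, other scalings and filters, a replicate block, a threshold of 0.01 and leaving out each library. Promoters came from RefSeq tables of GRCh38.p14 and overlaps from GENCODE v44 on GRCh38, so neither describes the submitters' hg19 annotation. A planned comparison of proteins was not run.

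The kinesins, their roles and the companion lists were chosen with earlier results of these data known. Every kinesin tested was named, with library values for mitotic members and for up to 8 other members called. As 8 were called, all have them, and those of KIF5B were added after its values were seen. Of each companion list the largest rise and fall called were named, with CENPE, STARD9, KIFAP3, the KLC genes and APC, and other names are marked where they occur.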

Additional observations from a re-analysis of the deposited data

How the results depend on the processing

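The counts of mitotic kinesins called (12 higher, 0 lower) were the same under every alternative run. Of the kinesin log2 fold changes recomputed, 443 kept their direction and side of the threshold, 2 reversed, 2 became called and 2 lost their call. The cause of these changes was not tested. KIF16B, not called, ranged without single libraries from -0.18 to 0.0644, turning positive without 1CT replicate 2 and without 1CT-A replicate 3. KIFC3 was also not called at a threshold of 0.01. KIF5B was called higher with library size only (log2 fold change 0.18, adjusted p = 0.0371), which made 1 transport kinesin called higher. Cargo genes called higher were 1, not 0, with DESeq2 size factors, library size only, no filter and limma-voom. Intraflagellar genes called lower were 1 with library size only, and with DESeq2 and at a threshold of 0.01 they were 1 higher and 0 lower. Without single libraries the counts ran from 0 to 1 for spindle genes lower (STARD9 without 1CT replicate 1, adjusted p = 0.0444), 0 to 1 for cargo higher, and 2 to 5 higher and 0 to 3 lower for intraflagellar genes. The median of all genes moved by -0.12 with DESeq2 and by -0.09 with edgeR and no filter, both run on 19169 genes.

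Deviations of same-numbered libraries had no common sign (correlations of -0.161, 0.22 and -0.139). The highest correlation between the lines was 0.345, for 1CT replicate 3 with 1CT-A replicate 1. The labels name no pairing, and with 3 libraries per line these values cannot show whether a batch was shared. A fit with a replicate block called 6091 genes, of which 6000 were among the 6388 called without it. Depth limits kinesins near 3 counts. With no filter 9 kinesins were called lower and with DESeq2 8, against 7, and 6 of each were transport kinesins, against 5. The median of the transport kinesins ran from -0.31 to -0.12 without single libraries.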

Other observations

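The motor that carries cargo the other way along microtubules, cytoplasmic dynein, was read with its activator dynactin and its adaptors from a list of 28 genes. Of these 25 were tested, 11 were called lower, 2 higher and 12 neither in 1CT-A, beside 26.0% of all genes lower and 25.0% higher, with a median log2 fold change of -0.21. The heavy chain DYNC1H1 had a log2 fold change of -0.91 (SE 0.10, edgeR adjusted p = 7.43e-06), and the largest fall was that of the adaptor BICD1, at -1.16 (SE 0.22, edgeR adjusted p = 0.000615). The light intermediate chains went opposite ways, with DYNC1LI1 at 0.48 (SE 0.10, edgeR adjusted p = 0.00169), the largest rise called, and DYNC1LI2 at -0.65 (SE 0.08, edgeR adjusted p = 1.40e-05). DYNC1H1 and DYNC1LI2 were named after their values were seen.

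Intraflagellar transport moves proteins along the cilium with kinesin-2 going out and dynein-2 coming back. Of 25 such genes tested 4 were called higher, 3 lower and 18 neither, beside 25.0% of all genes higher and 26.0% lower, with a median log2 fold change of 0.09. TTC21B had the largest rise called, at 0.62 (SE 0.20, edgeR adjusted p = 0.0214), and IFT122 the largest fall, at -0.53 (SE 0.15, edgeR adjusted p = 0.0112). Both encode parts of the complex that serves the return journey. These counts changed with single libraries, as given above.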
